A study of Mus musculus with 4 samples.

Results

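The genes described here were 10 members of the bone morphogenetic protein (BMP) pathway and its ID target family, followed in endothelial cells of the mouse heart: the ligands Bmp2, Bmp4 and Bmp6, the receptor Acvrl1 and co-receptor Eng, the inhibitory SMADs Smad6 and Smad7, and Id1, Id2 and Id3. They were chosen by name, 10 of the 27998 genes in the files, and all 10 were matched. BMP ligands bind pairs of type I and type II receptors on the cell surface, which phosphorylate SMAD1, SMAD5 and SMAD9, and these enter the nucleus with SMAD4. Smad6, Smad7 and the Id genes are well known targets: the first pair act back as inhibitors, and ID proteins bind the E proteins and keep them off DNA. In endothelium the type I receptor ALK1, encoded by Acvrl1, and endoglin, encoded by Eng, carry much of the response to circulating ligands, and in the embryonic heart BMP signals are known for their part in forming the valve cushions.

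Transcripts were counted in 4 single-cell libraries, made from CD31+/CD45- cells sorted from C57Bl6J hearts, with no genetic change or treatment named in the labels: E12 (37 embryos pooled), E15 (48 embryos), P2 (21 pups) and adult mice of 8 weeks (6 animals). Each stage was 1 library, so no value has a replicate and no test was made. Intervals cover 95% and the error of counting alone, by exact methods (Poisson for a level, conditional binomial for a ratio, binomial for a share), and they leave out the spread between hearts. A level is in CPM: the UMIs (molecules counted) of a gene summed over the cells of a class, as a share of all UMIs of those cells and scaled so that all genes add to 1000000.

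Stage cannot be told apart from library, from digestion (Collagenase/Dispase at E12 and E15, with Collagenase II added at P2 and in the adult), from dead-cell removal by kit in the embryos against a further sort after birth, or from red cell lysis, used in the adult. After limits on barcodes, 5366, 5633, 5550 and 4039 cells remained at E12, E15 and P2 and in the adult, with medians of 1214, 984, 4439.5 and 1477 UMIs. Barcodes shared between 2 libraries numbered 25 to 60 a pair.

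Cells were put into classes by marker UMIs. Endocardial cells had more UMIs of Npr3 and Tmem108 than of Fabp4, Cldn5 and Aplnr, and numbered 1590, 1994, 1054 and 63 at E12, E15 and P2 and in the adult. Coronary cells had at least 2 UMIs of those 3 coronary genes and more of them than of the endocardial pair, and numbered 103, 1116, 4299 and 3899. Valve cells had at least 2 UMIs of Cldn11, Enpp2 and Aqp8, and numbered 18, 55, 399 and 17. Cells without a UMI of Pecam1, Cdh5 or Egfl7 were called non-endothelial, and numbered 2844, 1763, 13 and 120. Of these, 555, 517, 0 and 1 also passed the endocardial rule, and 6, 172, 11 and 90 the coronary rule. Non-endothelial thus names the lack of these UMIs here, and not a cell type.

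Check genes that the rule did not use followed the endocardial and coronary names, but the valve name at some stages alone. The 8 endocardial check genes stood at 2454, 3452, 4514 and 5012 CPM in endocardial cells and at 897, 806, 1209 and 1051 CPM in coronary cells, and the 8 coronary check genes at 173, 212, 382 and 499.8 CPM against 623, 1677, 4448 and 9250 CPM. The 7 valve check genes stood at 465, 1353, 1449 and 1110 CPM in valve cells and at 492, 396, 738 and 698 CPM in endocardial cells, so the E12 valve class was no higher. Non-endothelial cells held more of them than valve cells at E12 (701 CPM) and at P2 (2254 CPM, over 13 cells), and adult valve cells held 1735 CPM of the coronary check genes. Valve thus names the marker rule here. The classes are ranges cut from sparse counts, and deep cells pass the limits more often. At the 4 stages in turn, a margin of 1 UMI separated 63.6%, 56.5%, 16.9% and 25.4% of the endocardial cells from the coronary side, and 59.2% of the E12 coronary cells sat at the edge of their class. The median endocardial cell held 1, 1, 6 and 4 UMIs of its own pair and 0, 0, 1 and 1 of the coronary genes at the 4 stages. The median coronary cell held 2, 6, 71 and 33 UMIs of its own genes and 0 of the endocardial pair at every stage.

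The label of endothelial cells held unevenly: 53.0% of the E12 cells and 31.3% of the E15 cells had no UMI of Pecam1, Cdh5 or Egfl7, and 555 of the 1590 E12 endocardial cells were among them. With each cell thinned to 500 UMIs, the non-endothelial share was 71.7%, 51.7%, 24.4% and 15.6% at the 4 stages, so this share depends on depth. The E12 file also held droplets of at most 50 UMIs. Over 155236 of them, Eng stood at 334 CPM, Id1 at 315, Id2 at 454 and Id3 at 1136 CPM, beside 354, 221, 603 and 918 CPM in E12 endocardial cells. Bmp2, Bmp4, Bmp6, Acvrl1, Smad6 and Smad7 stood there at 16.2, 51.7, 3.23, 27.5, 90.5 and 74.3 CPM. In E12 endocardial cells these 6 were at 6.11, 31.5, 0.470, 5.17, 61.6 and 66.8 CPM. In E12 coronary cells they were at 4.98, 69.7, 0, 14.9, 19.9 and 34.9 CPM. Id1 and Id3 stood at 164 and 832 CPM in E12 coronary cells. Bmp2, Acvrl1, Smad6, Smad7, Id1 and Id3 thus had a higher level in the droplets than in either class, and so did Bmp6, from 2 UMIs. For Id1 (272 to 362 CPM) and Id3 (1053 to 1223 CPM) the droplet interval lay above those of both classes. For Bmp2, Acvrl1, Smad6 and Smad7 it overlapped that of at least 1 class. The part of such free RNA in the E12 levels was not tested.

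**Figure D1:**
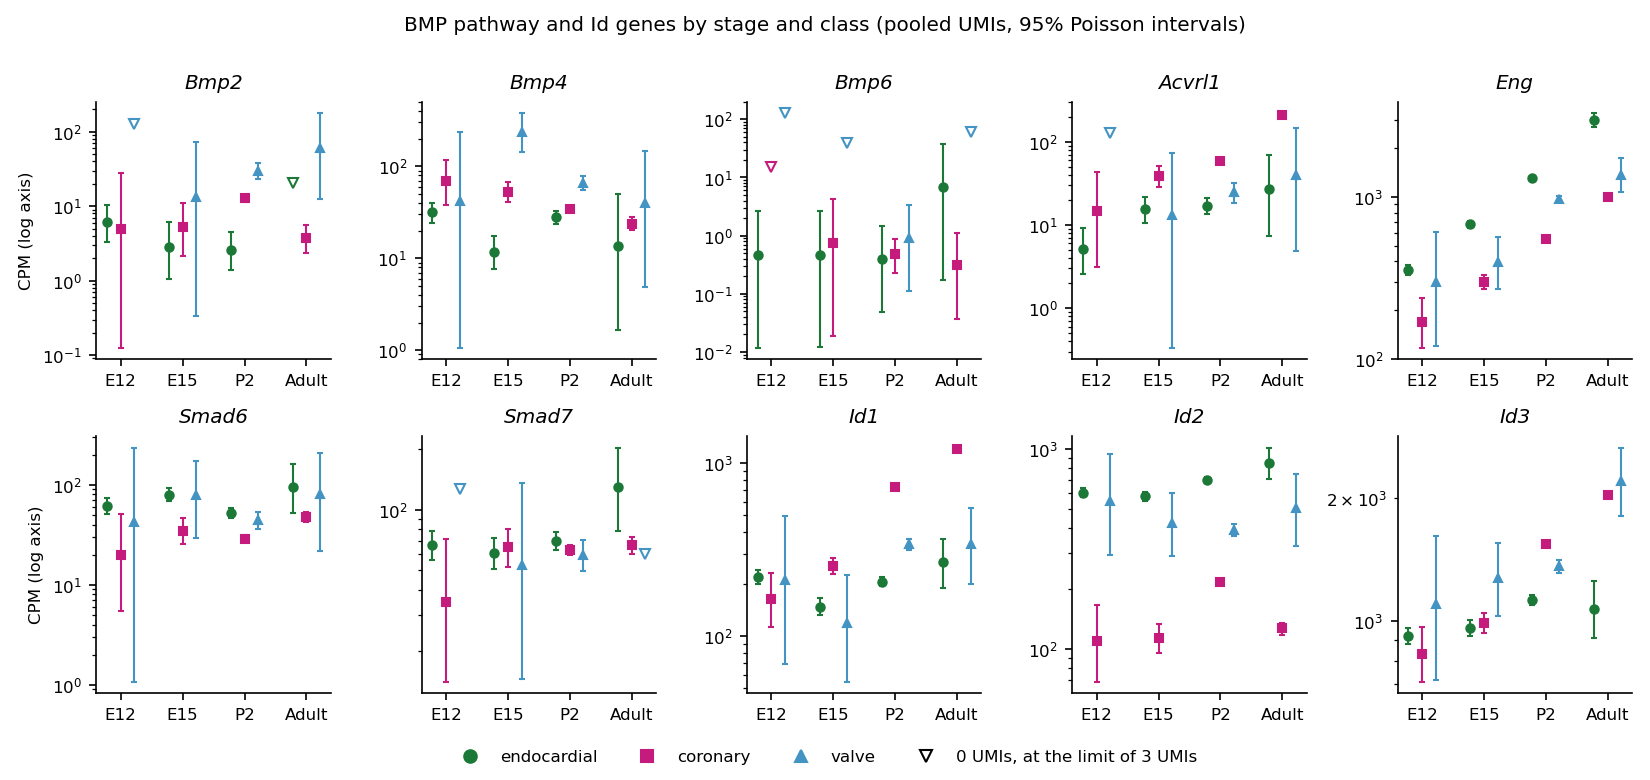
Levels of the 10 genes (CPM, log axes that differ between panels) at E12, E15 and P2 and in the adult, in endocardial (green circles), coronary (pink squares) and valve cells (blue triangles). Bars are 95% Poisson intervals of the pooled UMIs, and open triangles mark classes with 0 UMIs at the level of 3 UMIs. Id2 and Eng lie higher in endocardial cells at every stage, and Id1 and Acvrl1 lie higher in coronary cells from E15 on.

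Id2 and Eng were over 2-fold higher in endocardial cells than in coronary cells of the same library at all 4 stages. Acvrl1 was over 2-fold lower in them from E15 on, and Id1 at P2 and in the adult. Called here means at least 2-fold apart with at least 20 UMIs over both classes. A gene with 0 UMIs in 1 class was left out where the floor of 3 counts gave no direction. This was so for adult Bmp2, with 0 and 24 UMIs. Of 7 members with enough UMIs at E12, 3 were called higher in endocardial cells (Eng, Smad6, Id2), where 17.3% of all genes were, and 1 lower (Bmp4), where 6.02% were. At E15 the counts were 3 higher (Eng, Smad6, Id2; 13.7% of all genes) and 2 lower (Bmp4, Acvrl1; 6.1%) of 8. At P2 they were 2 higher (Eng, Id2; 10.7%) and 3 lower (Bmp2, Acvrl1, Id1; 11.2%) of 9, and in the adult 3 higher (Eng, Smad6, Id2; 17.1%) and 2 lower (Acvrl1, Id1; 13.7%) of 8. The members' median log2 ratio was 0.94, -0.07, -0.30 and 0.09 at the 4 stages, beside 0.12, 0.14, 0.09 and 0.12 over all genes. Over genes with at least 20 UMIs in each class the E12 median was -0.16. From E15 on the members thus went both ways, with no common direction. At E12, Bmp4 alone of the 7 had a ratio below 1, though the intervals of Smad7, Id1 and Id3 lay on both sides of 1.

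Among the ligands, Bmp4 was the one with most UMIs. In endocardial cells it stood at 31.5, 11.8, 27.9 and 13.7 CPM at E12, E15 and P2 and in the adult, and in coronary cells at 69.7, 52.9, 34.3 and 23.7 CPM. The endocardial level was 0.452 times the coronary level at E12 (0.251 to 0.870) and 0.222 times at E15 (0.135 to 0.356). With an endothelial UMI required of every cell, the E12 ratio was 0.149. At P2 the ratio was 0.814 (0.674 to 0.977), but with classes drawn on thinned cells it was 1.43, on the other side of 1. In the adult it rested on 2 endocardial UMIs.

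Bmp2, a ligand known for its part in forming the valve cushions, had few UMIs in endocardial and coronary cells other than the coronary cells of P2. Its coronary level was 4.98, 5.29, 12.7 and 3.70 CPM at the 4 stages, from 1, 7, 265 and 24 UMIs. Its endocardial level was 6.11, 2.82 and 2.61 CPM up to P2, and 0 of 146045 UMIs in the adult, with an interval up to 25.3 CPM. At P2 the endocardial level was 0.205 times the coronary one (0.108 to 0.357), and between 0.188 and 0.247 times under the alternatives that left UMIs in both classes. With cells thinned to 500 UMIs, endocardial cells held 0, which against a floor of 3 counts bounds the ratio at 0.866. Bmp6 had 10 UMIs in P2 coronary cells and 2 or fewer in every other class and stage, so no ratio is given for it.

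Both receptors were detected, and they differed between the classes in opposite directions. Acvrl1, the type I receptor ALK1, stood at 5.17, 15.5, 17.1 and 27.4 CPM in endocardial cells and at 14.9, 38.6, 59.6 and 209 CPM in coronary cells. The endocardial level was 0.403 times the coronary level at E15 (0.252 to 0.636), 0.286 times at P2 (0.227 to 0.357) and 0.131 times in the adult (0.0356 to 0.336, from 4 endocardial UMIs). Under the alternatives the E15 ratio ranged from 0.340 to 0.468, the P2 ratio from 0.199 to 0.436 and the adult ratio from 0.0744 to 0.384. At E12 the classes held 11 and 3 UMIs, too few for a call.

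Eng, the co-receptor endoglin, stood at 354, 678, 1317 and 2992 CPM in endocardial cells and at 169, 299, 552 and 997 CPM in coronary cells. The ratio was 2.09 (1.48 to 3.04), 2.27 (2.03 to 2.54), 2.39 (2.31 to 2.46) and 3.0 (2.72 to 3.31). The endocardial cells were thus the higher ones in each library, beyond counting error. The E12 ratio moved to 1.14 when classes were drawn on thinned cells, which left 21 coronary cells at that stage. From E15 on, it lay between 2.04 and 3.24 under every alternative.

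Smad6, which blocks the BMP receptors and their SMADs, stood at 61.6, 79.5, 52.4 and 95.9 CPM in endocardial cells and at 19.9, 34.8, 29.0 and 47.5 CPM in coronary cells. The ratio was 3.09 (1.18 to 11.5, from 4 coronary UMIs), 2.29 (1.64 to 3.24), 1.81 (1.56 to 2.09) and 2.02 (1.09 to 3.44), above 1 at each stage and close to the 2-fold limit at the last 3. Under the alternatives with UMIs in both classes it ranged from 2.16 to 3.47 at E12, from 1.99 to 3.74 at E15, from 1.54 to 2.99 at P2 and from 1.68 to 2.73 in the adult. Without cells with a mitosis gene, E12 coronary cells held 0 UMIs, which against a floor of 3 counts gives a ratio of at least 1.51 and no call. With classes drawn on thinned cells, E12 coronary cells held 0 UMIs against 61 in endocardial cells. The same floor then gives a lower limit of 0.613 (exact interval from 0.484), which does not show a ratio above 1. Smad7, the other inhibitory SMAD, was at 66.8, 60.7, 70.0 and 130 CPM against 34.9, 65.0, 63.1 and 66.5 CPM. Its ratio was 1.91 (0.905 to 4.85), 0.934 (0.705 to 1.24), 1.11 (0.984 to 1.25) and 1.96 (1.17 to 3.09), past counting error in the adult alone.

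The Id genes split between the classes. Id2 stood at 603, 577, 699 and 849 CPM in endocardial cells at E12, E15 and P2 and in the adult, and at 110, 113, 216 and 127 CPM in coronary cells. Its ratio was 5.50 (3.62 to 8.81), 5.09 (4.29 to 6.07), 3.24 (3.10 to 3.38) and 6.71 (5.51 to 8.11), and it stayed between 2.84 and 9.57 under every alternative tried. The lowest adult value, 3.47, came when cells without an endothelial UMI or with markers of other cell types were left out. Among members with enough UMIs, Id2 had the largest endocardial ratio at each stage.

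Id1 lay the other way from E15 on. It stood at 221, 148, 206 and 267 CPM in endocardial cells and at 164, 255, 728 and 1205 CPM in coronary cells. The ratio was 1.34 (0.942 to 1.97), 0.582 (0.497 to 0.680), 0.283 (0.266 to 0.302) and 0.222 (0.157 to 0.303). The endocardial levels ran from 148 to 267 CPM. They were 0.672 times as high at E15 as at E12 (0.581 to 0.777) and 1.39 times at P2 as at E15 (1.23 to 1.58). The coronary ones lay higher at each later stage. With classes drawn on thinned cells the coronary ratio of E15 to E12 was 1.13 (0.542 to 2.85), its interval on both sides of 1.

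Id3 was close to even before birth and lower in endocardial cells after it. It stood at 918, 962, 1126 and 1068 CPM in endocardial cells and at 832, 990, 1544 and 2035 CPM in coronary cells. The ratio was 1.10 (0.942 to 1.30), 0.972 (0.907 to 1.04), 0.729 (0.709 to 0.750) and 0.525 (0.445 to 0.615), inside 2-fold at every stage.

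**Figure D2:**
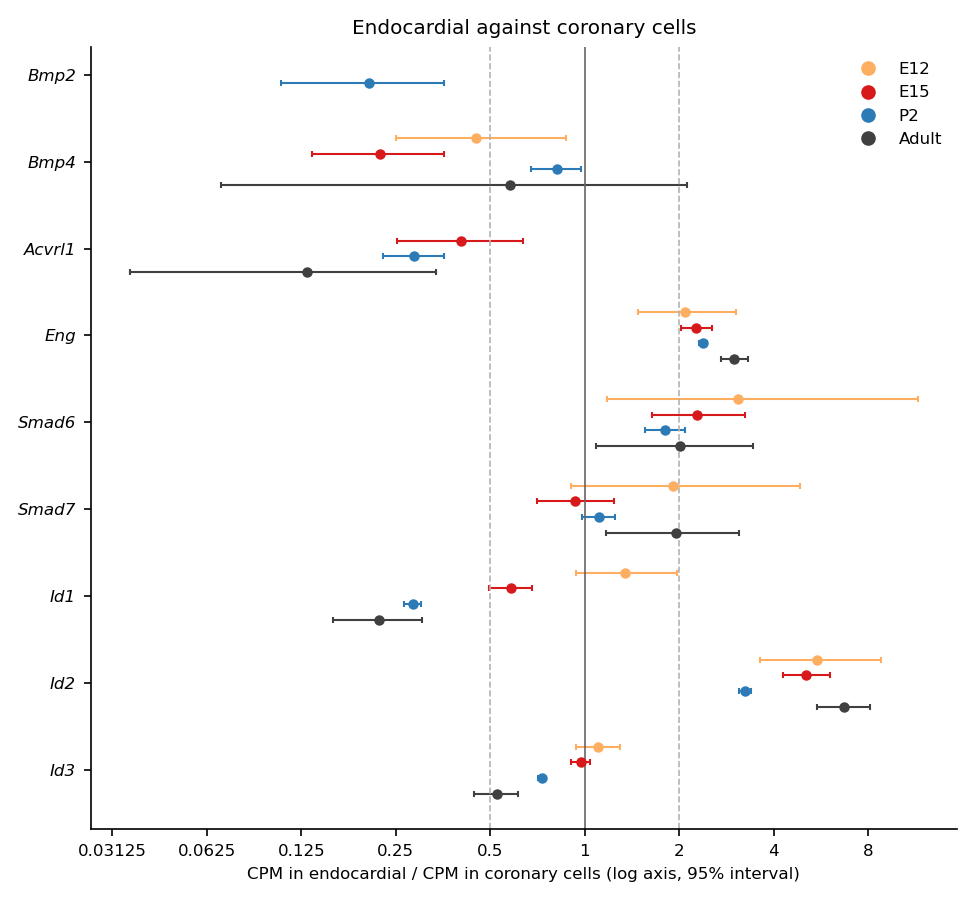
CPM in endocardial cells over CPM in coronary cells of the same library (log axis) for 9 genes and 4 stages, with 95% conditional binomial intervals. The solid line marks equal levels and the dashed lines 2-fold. Genes and stages with fewer than 20 UMIs are left out, and so is adult Bmp2, with 0 endocardial UMIs. Id2, Eng and Smad6 lie to the right of the solid line at all 4 stages, while Id1 lies at 1.34 at E12 and at 0.222 in the adult.

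Immediate-early genes, which respond to handling as well as to growth signals, also differed between the classes. They stood higher in endocardial cells before birth and higher in coronary cells after it. The 8 genes of that list summed to 921, 1061, 2275 and 1595 CPM in endocardial cells and to 498, 832, 5501 and 7707 CPM in coronary cells. In the adult coronary class, the 744 cells with over 1% of their UMIs in these genes held 2.57 times the Id1 (2.46 to 2.69), 2.26 times the Id2 (1.96 to 2.61) and 2.02 times the Id3 level (1.95 to 2.09) of the other 3155 cells, and 0.702 times the Eng level (0.658 to 0.748). These 3 Id genes were the members called higher in that split, and none was called lower (3.11% and 5.26% of all genes). At P2 the 832 such coronary cells held 2.24 times the Id1 level (2.16 to 2.31) and 1.02 times the Id2 level (0.946 to 1.10), with Id1 and Bmp2 called higher and none lower (2.31% and 5.53% of all genes). No adult endocardial cell passed 1%. With all such cells left out, the endocardial to coronary ratio of Id1 was 0.344 at P2 and 0.303 in the adult, that of Id3 0.795 and 0.649, and that of Id2 3.17 and 8.68. Genes of mitosis differed as well, at 826, 462, 155 and 13.7 CPM in endocardial and 966, 968, 841 and 55.5 CPM in coronary cells. Without cells holding a mitosis gene the Id2 ratio was 3.40, 4.02, 2.84 and 6.38 at the 4 stages.

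Summed over the 3 Id genes, the level was 1742, 1687, 2031 and 2184 CPM in endocardial cells and 1106, 1358, 2488 and 3367 CPM in coronary cells. The make-up of that sum differed between the classes. Id2 gave 34.6%, 34.2%, 34.4% and 38.9% of it in endocardial cells at the 4 stages, with intervals from 32.6% at the lowest to 44.5% at the highest, and 9.91%, 8.35%, 8.68% and 3.76% in coronary cells. Id1 gave 12.7%, 8.78%, 10.2% and 12.2% in endocardial cells and 14.9%, 18.8%, 29.3% and 35.8% in coronary cells. P2 valve cells lay between, with 18.7% Id2 (17.6 to 19.9) and 16.3% Id1 (15.2 to 17.4). Of these 399 cells, 210 also passed the coronary rule and 143 the endocardial rule. The part of this overlap in their shares was not tested. Counts were of molecules tagged at the 3′ end, so they were not divided by length, and the shares serve to compare classes, not genes.

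**Figure D3:**
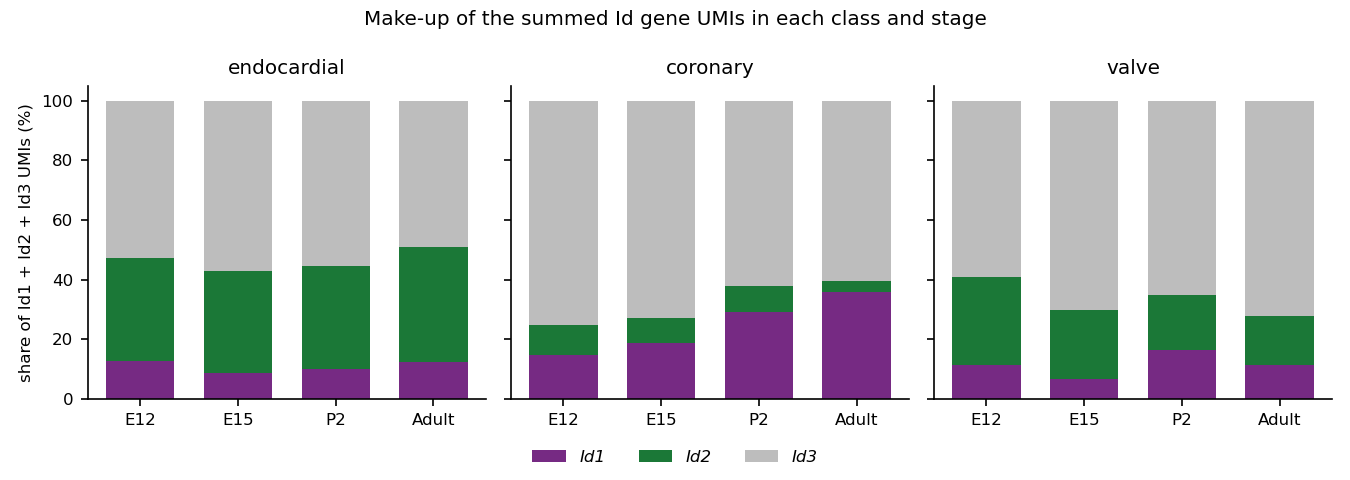
Share of the summed Id1, Id2 and Id3 UMIs (%) given by each gene, in endocardial, coronary and valve cells at 4 stages. Each bar adds to 100%. The Id2 share is 34.2% to 38.9% in endocardial cells and 3.76% to 9.91% in coronary cells, and the Id1 share of coronary cells is 14.9% at E12 and 35.8% in the adult.

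The share of cells with a UMI told the same at a fixed depth. With each cell thinned to 500 UMIs and classes drawn on the thinned counts, Id2 was seen in 26.0% (23.0 to 29.1), 24.1% (21.7 to 26.5), 26.9% (23.2 to 30.9) and 18.0% (8.58 to 31.4) of endocardial cells, and in 4.76% (0.120 to 23.8), 3.50% (2.34 to 5.01), 8.56% (7.68 to 9.52) and 4.95% (4.28 to 5.69) of coronary cells. Id1 was seen in 9.62%, 6.88%, 8.47% and 10.0% of endocardial cells, and in 4.76%, 12.7%, 30.2% and 38.4% of coronary cells. Eng was seen in 18.3%, 29.7%, 45.4% and 68.0% against 9.52%, 14.2%, 22.4% and 38.0%. Thinning left out 70 cells at E12 and 351 at E15 and none later. Unthinned, the Id2 shares were 47.4%, 38.7%, 72.5% and 55.6% against 18.4%, 9.68%, 42.9% and 14.6%.

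Called E12 barcodes with at least 20% hemoglobin UMIs held Id3 in 25.0% of 40, Id2 in 12.5%, Eng in 2.50% and Id1 in none. Whether these UMIs were free RNA or came from the cells of those barcodes was not tested. The part of free RNA in endocardial cells was not tested either. These barcodes were counted without thinning, at a median of 1864.5 UMIs, beside 1244.5 UMIs in E12 endocardial cells. The first median includes the hemoglobin UMIs, so the depth left for other genes was not matched between them. Unthinned, E12 endocardial cells held Id3 in 63.0% (60.6 to 65.4), Id2 in 47.4% (44.9 to 49.8), Eng in 34.0% (31.6 to 36.3) and Id1 in 22.9% (20.8 to 25.0). Each lay above the interval of the barcodes, which was 12.7 to 41.2% for Id3, 4.19 to 26.8% for Id2, 0.0633 to 13.2% for Eng and up to 8.81% for Id1.

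**Figure D4:**
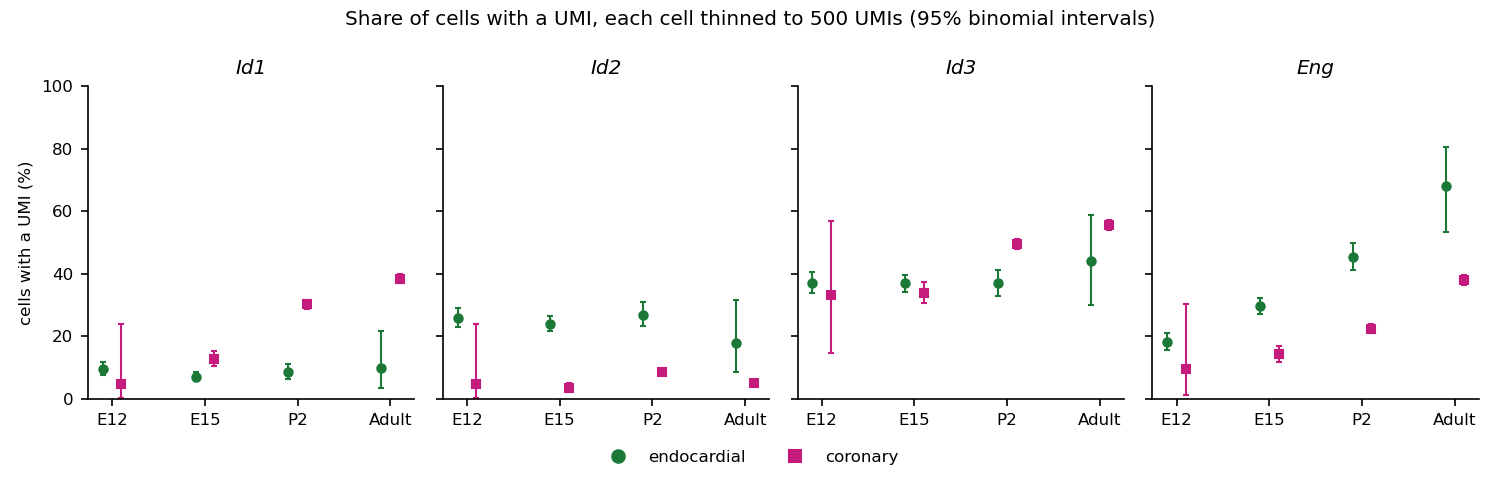
Share of cells with at least 1 UMI (%) of Id1, Id2, Id3 and Eng after each cell was thinned to 500 UMIs, in endocardial (green) and coronary cells (pink) at 4 stages. Bars are 95% binomial intervals. The E12 coronary points rest on 21 cells and the adult endocardial points on 50. The Id2 share is higher in endocardial cells at E15, P2 and in the adult, and the Id1 share is higher in coronary cells there.

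Within single coronary cells, Id3 was seen more often beside Id1 than without it from E15 on. Among thinned coronary cells at E15, Id3 was seen in 48.0% of the 102 cells with Id1 and in 31.8% of the others. Among thinned coronary cells at P2, Id3 was seen in 61.8% of the 1109 cells with Id1 and in 44.1% of the others, and in the adult in 63.1% of 1453 and 50.6% of the others. In endocardial cells the same shares were 57.5% and 35.3% at E15, but 40.0% and 36.8% at E12, 35.6% and 37.0% at P2, and 40.0% (of 5 cells) and 44.4% in the adult. Id2 was seen in 9.02% of P2 coronary cells with Id1 and in 8.37% of the others, and in the adult in 5.71% and 4.47%. The pairing was not particular to Id1 and Id3. From E15 on, Id3 was seen in 46.4%, 55.6% and 61.5% of coronary cells with Id2, against 33.4%, 48.8% and 55.1% of the others. In endocardial cells these shares were 44.0%, 42.8%, 39.2% and 55.6% (of 9 cells) at the 4 stages, against 34.7%, 35.0%, 36.1% and 41.5%. Eng showed no such pairing with Id1 in adult coronary cells, with 38.4% of cells holding Id1 among those with Eng and 38.5% among the others. These shares describe cells of 1 library each and rest on few UMIs a cell.

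Upstream sequence is given for the 3 members that were higher in endocardial cells at most stages. The RefSeq promoter table (GRCm38.p6, the build of mm10) held 6 of the 10 members. The missing ones were Bmp2, Acvrl1, Smad7 and Id1. Capitals mark GGCGCC, a GC-rich element of the kind bound by SMAD1 and SMAD5, and CAGAC or its reverse complement GTCTG, the short SMAD box. Printed bases run 5′ to 3′ on the gene's strand and stop short of every annotated exon, so Id3, whose upstream window lies inside an exon of a longer transcript, is left out. The Eng stretch is chr2:32646345-32646594, plus strand, the Smad6 stretch chr9:64022086-64022309, minus strand, and the Id2 stretch chr12:25096254-25096342, minus strand, which lies in an intron of a longer Id2 transcript.

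Eng: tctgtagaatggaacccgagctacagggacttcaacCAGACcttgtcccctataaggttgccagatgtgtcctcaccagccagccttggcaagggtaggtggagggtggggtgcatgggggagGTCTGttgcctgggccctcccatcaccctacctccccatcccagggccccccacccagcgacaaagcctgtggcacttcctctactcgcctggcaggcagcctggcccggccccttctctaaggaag

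Smad6: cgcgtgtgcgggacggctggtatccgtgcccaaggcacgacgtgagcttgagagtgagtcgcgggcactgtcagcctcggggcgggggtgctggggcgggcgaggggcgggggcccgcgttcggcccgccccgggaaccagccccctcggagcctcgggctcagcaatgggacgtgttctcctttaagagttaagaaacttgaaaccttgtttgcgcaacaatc

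Id2: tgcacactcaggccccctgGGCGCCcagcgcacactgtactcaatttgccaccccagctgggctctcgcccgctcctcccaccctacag

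GGCGCC was found once in the Id2 stretch and not in the others, and CAGAC or GTCTG at 2 places in the Eng stretch and not in the others. Over the 250 bases upstream of 32851 RefSeq starts, 9.59% held GGCGCC and 42.2% held CAGAC on either strand. The E-box CANNTG, a pattern bound by E proteins, was found once each in the Eng and Id2 stretches and not in that of Smad6, where 66.2% of all upstream windows held it. In the 250 bases before the other members of the table, Id3 held 2 matches to CAGAC, Bmp6 held 1 and Bmp4 none, and none of the 3 held GGCGCC. A match is a run of letters and says nothing of binding here.

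Locations are given for 9 members, all but Smad7. They lie on GRCm38 at chromosome 2, 133552159 to 133562885 (Bmp2), chromosome 14, 46383520 to 46390669 (Bmp4), chromosome 13, 38345107 to 38500302 (Bmp6), chromosome 15, 101128522 to 101145336 (Acvrl1), chromosome 2, 32646595 to 32682669 (Eng), chromosome 9, 63953076 to 64022059 (Smad6), chromosome 2, 152736251 to 152737410 (Id1), chromosome 12, 25093799 to 25097140 (Id2) and chromosome 4, 136143497 to 136145755 (Id3), in GENCODE vM21. Eng overlaps 3 small genes on its own strand (Mir1954, Gm47291 and Gm26236) and Fpgs on the other. Bmp4, Bmp6 and Acvrl1 overlap genes on the other strand, and the strand setting of the counting is not given in the sources used here.

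Other genes of the pathway were counted over fixed lists of 44 genes that are no members. Of those that could be called, 9 of 20 were called higher in endocardial cells and 0 lower at E12 (17.3% and 6.02% of all genes). At E15 the counts were 6 and 1 of 22 (13.7% and 6.1%), at P2 they were 7 and 4 of 26 (10.7% and 11.2%), and in the adult 9 and 2 of 20 (17.1% and 13.7%). Among receptors, Bmpr1a, a type I receptor, stood at 63.5, 51.8, 82.8 and 82.2 CPM in endocardial cells against 14.9, 6.05, 10.8 and 4.01 CPM, a ratio of 4.25 (1.42 to 20.9), 8.56 (4.19 to 20.3), 7.67 (6.51 to 9.07) and 20.5 (9.42 to 42.1). This lay opposite to Acvrl1. Acvr1, the type I receptor ALK2, gave 2.93 (0.971 to 14.4), 1.85 (1.31 to 2.66), 3.07 (2.65 to 3.56) and 6.45 (3.70 to 10.6). Tgfbr3, the co-receptor betaglycan, gave 8.68 (2.37 to 72.2), 5.39 (3.43 to 8.93), 1.92 (1.60 to 2.29) and 5.92 (2.95 to 10.9). Bmpr2, the type II receptor, stayed within 2-fold, with ratios of 1.11 to 1.75.

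The signal carriers Smad1 and Smad5 stayed within 2-fold at all stages, Smad1 at 0.506, 0.698, 0.561 and 1.01 and Smad5 at 1.75, 1.88, 1.32 and 1.94. Among modulators, Ltbp1, which tethers latent TGF-β in the matrix, gave 3.03, 5.11, 3.59 and 9.78, Fstl1, a secreted follistatin-like protein, 2.39, 2.16, 2.03 and 4.76, and Twsg1, an extracellular BMP binder, 2.29, 2.02, 1.62 and 3.86. Bambi, a decoy receptor, was past 2-fold in the adult alone, at 2.23 (1.17 to 3.88). Fst and Smurf2 passed 50 CPM in valve cells only, Fst at 69.3 CPM at P2.

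Among other targets, Tmem100, a gene known to depend on ALK1 signalling, stood at 130, 196, 393 and 308 CPM in endocardial cells against 19.9, 29.5, 73.7 and 32.7 CPM, 6.54, 6.66, 5.33 and 9.43 times as high. Msx1 lay the other way from E15, at 0.211 (0.117 to 0.367), 0.178 (0.124 to 0.249) and 0.378 (0.122 to 0.888). Of the E proteins that ID proteins bind, Tcf4 was lower in endocardial cells, at 0.573 (0.428 to 0.782), 0.558 (0.497 to 0.627), 0.455 (0.431 to 0.481) and 0.361 (0.257 to 0.492), while Tcf3 and Tcf12 stayed within 2-fold. No other ligand of the list (Bmp3, Bmp5, Bmp7, Bmp8a, Bmp8b, Bmp10, Gdf2, Gdf5, Gdf6, Gdf7) had 20 UMIs over both classes at any stage.

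In the cells of the valve rule, Bmp4 was called higher at E15 and P2, and Bmp2 at P2, than in the other endocardial cells, and no member was called higher at E12 or in the adult. Of the valve cells, 8 of 55 at E15 and 143 of 399 at P2 also passed the endocardial rule. Of the members that could be called, 0 of 6 were called higher and 0 lower at E12 (31.4% and 5.76% of all genes), 1 and 0 of 8 at E15 (12.7% and 10%), 2 and 0 of 9 at P2 (4.84% and 2.4%), and 0 and 1 of 4 in the adult (7.51% and 14.8%). The members' median log2 ratio was -0.10, -0.22, 0.26 and -0.06, beside 0.48, 0.08, 0.03 and -0.07 over all genes. At E12 and in the adult the valve class held 18 and 17 cells, and 12 of the 17 also passed the coronary rule. Adult Eng, the member called lower, was at 1372 against 2979 CPM, 0.461 times (0.351 to 0.597), and at 0.855 times (0.593 to 1.20) with classes drawn on thinned cells.

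Bmp4 stood at 239 CPM in E15 valve cells against 11.8 CPM in the other endocardial cells, 20.2 times as high (10.4 to 38.5). The valve value rested on 18 UMIs in 9 cells, at most 5 in a cell, 8 of them in cells that also passed the coronary rule. All 18 were in cells with an endothelial UMI, and the 8 valve cells that also passed the endocardial rule held none (interval up to 305 CPM). At P2 the levels were 66.1 and 26.1 CPM, a ratio of 2.53 (1.96 to 3.28), and 1.40 (0.695 to 2.57) with classes drawn on thinned cells. The 143 P2 valve cells that also passed the endocardial rule held 37.7 CPM (25.2 to 54.1).

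Bmp2 stood at 29.8 CPM in P2 valve cells against 2.14 CPM in the others, 14.0 times as high (6.93 to 31.9). Its 65 UMIs came from 26 of 399 cells, and 1 cell gave 19 of them. The 46 valve cells that passed neither the endocardial nor the coronary rule held 159 CPM (108 to 226). These were 31 UMIs in 6 cells, 19 of them in 1 cell, which the interval does not allow for. The 210 that also passed the coronary rule held 24.7 CPM (16.7 to 35.3) and the 143 that also passed the endocardial rule 5.2 CPM (1.42 to 13.3). With classes drawn on thinned cells, 55 valve cells held 125 CPM against 2.46 CPM, from 31 and 6 UMIs. Within the P2 valve class, the 89 cells with a UMI of Pthlh or Wnt4 held 9.24 CPM against 36.7 CPM in the rest, 0.252 times as much (0.0790 to 0.621), where 2.63% of all genes were called higher and 4.42% lower in this split.

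The Id genes of P2 valve cells lay on the coronary side of the other endocardial cells: Id1 at 340 against 201 CPM, 1.69 times as high (1.53 to 1.87), and Id2 at 392 against 737 CPM, 0.531 times (0.492 to 0.573). Eng was at 971 against 1323 CPM, 0.734 times (0.698 to 0.772). Of the P2 valve cells 210 of 399 passed the coronary rule, so a mixture of classes moves with these values and its part was not tested. Fibroblast and cushion genes were at 2252 CPM in P2 valve cells and 10149 CPM in the 17 adult ones, against 1390 and 2581 CPM in endocardial cells of those stages, and their part was not tested either.

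Between stages, levels were compared across libraries, and depth, digestion and live-cell selection changed with them. Eng was higher at each later stage in both classes. In endocardial cells it was 1.92 times as high at E15 as at E12 (1.75 to 2.1), 1.94 times at P2 against E15 (1.84 to 2.06), 2.27 times in the adult against P2 (2.06 to 2.50) and 8.46 times in the adult against E12 (7.50 to 9.53). Coronary cells followed at 1.76, 1.85 and 1.81 for the 3 steps and 5.89 (4.21 to 8.51) from end to end. Over genes with at least 20 UMIs in both stages, the median of all genes was itself shifted by 0.48 on the log2 scale in endocardial cells between adult and E12 and by -0.43 in coronary cells. Relative to it the Eng ratio was 6.05 and 7.96. The shift was 0.21 and 0.26 from E15 to P2, and between classes it was -0.16, 0.13 and 0.25 at E12, P2 and in the adult.

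In endocardial cells, Acvrl1 was called higher and Bmp4 lower at E15 against E12 (1 each of 8 members; 4.31% and 4.88% of all genes), Bmp4 was called higher at P2 against E15 (1 and 0 of 8; 13.5% and 5.29%), and Eng was called higher and Bmp4 lower in the adult against P2 (1 each of 8; 13.2% and 11.9%) and against E12 (1 each of 7; 22.1% and 15.4%). Adult Bmp4 rested on 2 UMIs, and its ratio to E12 was 0.435 (0.0516 to 1.63). With cells holding an endothelial UMI alone it was 1.37, on the other side of 1. The Bmp4 ratio of E15 to E12 was 0.373 (0.226 to 0.599), and 0.478 (0.239 to 0.925) with classes drawn on thinned cells. It shares the E12 level, where requiring an endothelial UMI moved the endocardial to coronary ratio from 0.452 to 0.149. Without non-endothelial cells and other-cell-type markers, no member was called lower between stages in endocardial cells. The lower call of Bmp4 at E15 thus depended on which cells were kept. Id2 was 1.41 times as high in the adult as at E12 (1.16 to 1.70), but 0.650 times without cells lacking an endothelial UMI or holding markers of other cell types. Id3 was 1.16 times as high (0.982 to 1.37), but 0.832 times relative to the median of all genes. It was 0.953 times with hemoglobin, mitochondrial and ribosomal genes left out of the totals. The Id2 ratio of 1.41 is 0.49 on the log2 scale, beside the all-gene shift of 0.48, so it lay close to that median. Over genes with at least 20 UMIs over both stages together, the median was 0.13.

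In coronary cells at E15 against E12, 1 of 8 members was called higher (Acvrl1) and 0 lower (11.4% and 5.43% of all genes). That Acvrl1 ratio was 2.58 (0.834 to 12.9), with 3 UMIs at E12 and an interval on both sides of 1. At P2 against E15, 2 of 9 were higher (Bmp2, Id1) and 0 lower (18.8% and 5.39%). In the adult against P2, 1 of 9 was higher (Acvrl1) and 1 lower (Bmp2; 10.7% and 14.2%), and against E12, 5 of 9 were higher (Acvrl1, Eng, Smad6, Id1, Id3) and 1 lower (Bmp4; 27.2% and 15.8%). Smad6 in the adult against E12 was at 2.38 times (0.921 to 8.80), with 4 UMIs at E12, and at 1.58 times over all called barcodes. The median log2 ratio of the members from E12 to the adult was 1.25, beside 0.23 over all genes with at least 20 UMIs over both stages. Over genes with at least 20 UMIs in each stage it was -0.43, so the sign of this background depends on the genes taken.

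Id1 in coronary cells was 2.86 times as high at P2 as at E15 (2.57 to 3.19) and 7.33 times in the adult as at E12 (5.22 to 10.7). Acvrl1 was 3.51 times as high in the adult as at P2 (3.25 to 3.80), from 1358 and 1242 UMIs, and 14.0 times as high as at E12, where 3 UMIs were counted (4.78 to 68.0). With classes drawn on thinned cells, E12 coronary cells held 0 Acvrl1 UMIs, and against a floor of 3 counts the adult level was at least 2.16-fold higher (exact interval from 1.76). Id3 was 2.45 times as high in the adult as at E12 (2.1 to 2.87). Bmp4 lay the other way, at 0.340 times (0.197 to 0.637). Id2 was 1.91 times as high at P2 as at E15 (1.62 to 2.26) and 0.586 times as high in the adult as at P2 (0.543 to 0.631), so P2 was its highest coronary level. Each stage enters several of these ratios, so they share libraries.

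Coronary cells were split by genes of arteries (Gja5, Gja4, Sox17, Cxcl12, Unc5b, Bmx) and of veins (Nr2f2, Vwf, Ephb4, Prss23), by which sum was larger. The artery side held 283, 1761 and 2811 cells at E15, P2 and in the adult, and the vein side 156, 1458 and 358. The adult artery side was thus 2811 of 3899 coronary cells and cannot be read as arteries alone. At E12 the sides held 12 and 40 cells and are not described.

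On the artery side of the adult, Id1 stood at 1308 CPM against 621 CPM, 2.11 times as high (1.90 to 2.34). Smad6 was at 55.4 against 26.1 CPM, 2.12 times (1.28 to 3.76). Bmp4 was at 22.3 against 52.3 CPM, 0.426 times (0.285 to 0.653). These were the members called, 2 higher and 1 lower, where 5.75% and 6.6% of all genes were. At P2, Acvrl1 was the member called, at 83.2 against 41.0 CPM, 2.03 times as high (1.77 to 2.33; 2.22% of all genes higher, 3.78% lower). Id1 was 1.71 times (1.64 to 1.77) and Smad6 1.77 times as high (1.47 to 2.14) on the artery side at P2. At E15, Id2 was the member called, at 90.7 against 208 CPM, 0.436 times (0.266 to 0.707; 5.9% higher, 3.51% lower), and it was 0.916 times at P2 (0.859 to 0.976) and 0.653 times in the adult (0.533 to 0.805). Eng was at 0.642 (0.479 to 0.863) at E15 and 1.05 and 1.08 later. Immediate-early genes stood at 6733 CPM on the P2 artery side and 4529 CPM on the vein side, and at 7952 and 6843 CPM in the adult, and their part in the Id1 values was not tested.

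**Figure D5:**
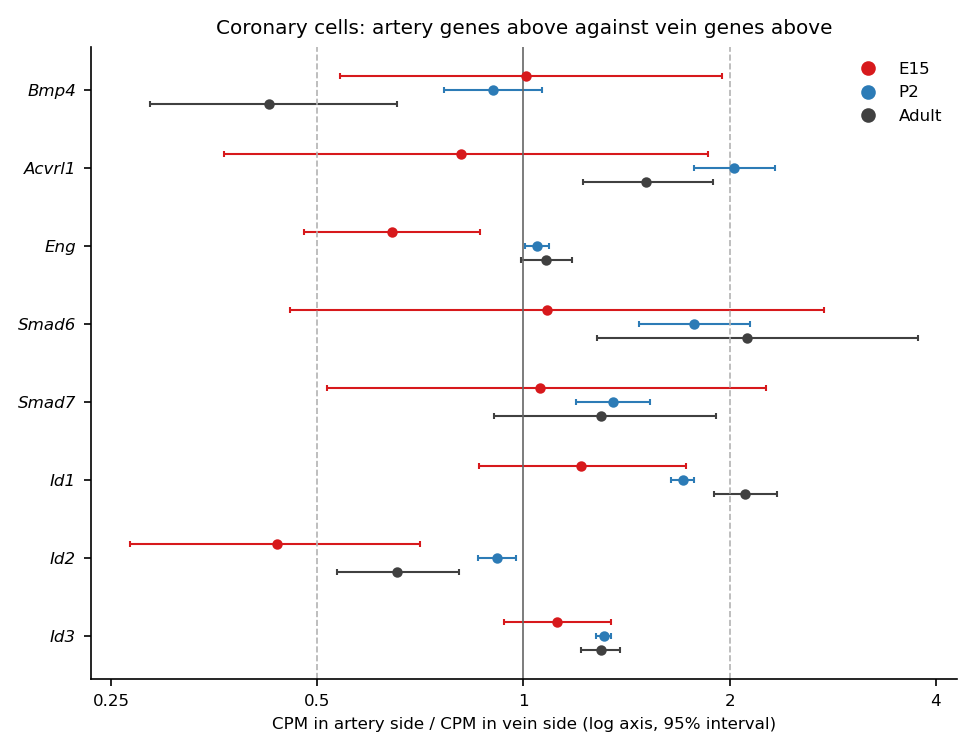
CPM in coronary cells with more artery than vein UMIs over CPM in those with more vein than artery UMIs (log axis), for 8 genes at E15, P2 and in the adult, with 95% conditional binomial intervals. The solid line marks equal levels and the dashed lines 2-fold. Id1 and Smad6 lie to the right at P2 and in the adult, Id2 lies to the left at all 3 stages, and adult Bmp4 lies at 0.426.

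Cells with no endothelial UMI were set against all other cells of their library. Most of those after birth passed the coronary rule, 11 of 13 at P2 and 90 of 120 in the adult. Of the E15 ones, 68.2% held a UMI of the 6 endothelial check genes, which summed to 1532 CPM. At E12 these genes were at 672 CPM, against 1728 CPM in the other cells. The part of endothelial cells that lacked the rule's UMIs in the values below was not tested. At E12, Bmp2 was at 32.0 against 11.8 CPM, 2.72 times as high (1.89 to 4.0), and Bmp4 at 97.2 against 39.7 CPM, 2.45 times (2.0 to 3.0). Acvrl1 was at 0.300 times (0.131 to 0.631) and Eng at 0.419 times (0.377 to 0.465). These were 2 members called higher and 2 lower of 9, where 7.91% and 5.18% of all genes were. The Id genes differed little there, at 1.23, 1.21 and 1.06 times for Id1, Id2 and Id3. At E15, Bmp2 was called higher, at 2.56 times (1.33 to 4.94), and no member lower (1 and 0 of 9; 6.62% and 3.03% of all genes). At P2, with 13 such cells, Eng and Id1 were called lower (2 of 9; 11.9%) and none higher (24.3%). In the adult, Acvrl1, Eng, Smad6 and Id1 were called lower (4 of 9; 15.1% of all genes) and Bmp2 higher (1 of 9, from 4 UMIs; 13.2%), with Eng at 0.294 (0.226 to 0.376) and Id1 at 0.357 times (0.285 to 0.441). Fibroblast and cushion genes summed to 3028 CPM in the E12 non-endothelial cells and hemoglobin to 12447 CPM, beside 1170 and 2081 CPM in E12 endocardial cells, and their part was not tested.

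Over the 12 groups of endocardial, coronary and valve cells at 4 stages, 2937 genes with a mean of at least 50 CPM were ranked by Pearson's r of log2(CPM + 10) with each member, as a description. The groups share libraries and depth, and 2 of the valve groups hold under 20 cells. Eng was most like Mmrn2 (r = 0.988), Krit1 and Tspan4, Id2 like Il11ra1 (0.957), Tmem176a and Usp9x, Id1 like Slc9a3r2 (0.924), 1810011O10Rik and Jup, and Id3 like Dnm2 (0.961), Plin2 and the immediate-early gene Junb (0.934). Acvrl1 was most like Ptrf (0.959), Picalm and Cyyr1, Smad6 like Cbx6 (0.890), Ttc14 and Ptpn14, and Smad7 like Sf1 (0.954), Asna1 and Scoc. For the sparse ligands the closest were Syncrip (0.824), Fgl2 and Itpa for Bmp2, Wtap (0.786), Atf4 and Ccdc34 for Bmp4, and Atp1b3 (0.840), Gabarapl1 and Mat2a for Bmp6. The Bmp6 values rest on 1 UMI in adult endocardial cells (6.85 CPM), with every other group at 0.918 CPM or less. No likeness can be read from them. Among the members themselves, Acvrl1 and Id1 were at r = 0.833, Smad6 and Id2 at 0.754 and Id1 and Id3 at 0.710.

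In the order of levels, Eng was highest in adult endocardial cells, above adult valve cells by more than counting error, and lowest in E12 coronary cells. Id2 was highest in the endocardial cells of the adult and P2 and lowest in the 4 coronary groups, and the 3 lowest of these did not differ beyond counting error. Id1 was highest in adult and then P2 coronary cells, each apart from the next. Id3 was highest in adult valve and adult coronary cells, which did not differ, and Acvrl1 in adult coronary cells, apart from P2 coronary cells below them.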

How the data were processed

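Libraries were 10x Genomics v2, 3′ end, and the authors, per the submitters' processing notes, used Cell Ranger 2.2 with mm10. The deposited values are counts: UMIs per gene and barcode, whole numbers, not normalized. The E12 file held all barcodes, and those with at least 452 UMIs were taken as cells (88.7% of its UMIs). The study's limits on UMIs, genes and mitochondrial share were applied. Doublets were scored with a rebuilt Scrublet, and barcodes over 0.15 (1.17% to 4.20% a library) were removed. Of simulated doublets, 14.3% to 47.6% a library passed that limit, so most would be missed in each. Kept cells held 7179524, 6106682, 26618583 and 6813240 UMIs at E12, E15 and P2 and in the adult.

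UMIs were summed per class and stage, and CPM were compared with exact 95% intervals in Python 3.11.15 (numpy 2.4.6, pandas 2.3.3, scipy 1.17.1, matplotlib 3.10.9), tested on simulated data. The simulated class sums were drawn as Poisson counts without single cells. That test thus checks the calculation, and not the spread between cells. All 10 members are named, other pathway genes at 50 CPM in a class or past 2-fold at 2 or more stages, and the 3 genes most like each member. A level of 0 was set against 3 counts, and a ratio was left out where that bound said nothing. Members and gene lists were chosen with earlier results of these data known. The treatment of levels of 0, the summing of called members over stages, the division of valve cells, the upstream stretches shown and 2 of the alternatives were chosen after values were seen. Alternatives covered thinning, scaling, class limits and cells left out.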

Additional observations from a re-analysis of the deposited data

Results flagged for a closer look

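In 3 cases a member lay higher at the later of 2 stages in one class and lower in the other. In each, the intervals of both classes left out 1, and cases that fell short of this are not listed. The share of all genes that do the same is not given. The number of cases thus does not set these members apart from other genes. None of these differences was tested, since each stage was 1 library.

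Bmp4 was 2.37 times as high at P2 as at E15 in endocardial cells (1.54 to 3.79) and 0.648 times in coronary cells (0.506 to 0.840). With classes drawn on thinned cells the values were 2.77 and 0.557. Id1 was 0.672 times as high at E15 as at E12 in endocardial cells (0.581 to 0.777) and 1.55 times in coronary cells (1.08 to 2.29). With classes drawn on thinned cells the coronary value was 1.13 (0.542 to 2.85), its interval on both sides of 1. Id2 was 1.21 times as high in the adult as at P2 in endocardial cells (1.01 to 1.45) and 0.586 times in coronary cells (0.543 to 0.631). With classes drawn on thinned cells the endocardial value was 1.07 (0.848 to 1.33) and the coronary one 0.680.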

How the results depend on the processing

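No paired analysis was possible because each stage was 1 library, and no replicate could be left out. Members called, summed over stages, were 11 higher and 8 lower for endocardial against coronary cells and 9 higher and 2 lower between stages in coronary cells, and no alternative moved these 4 counts by over 1.5 times. The sums between stages include the adult against E12, which spans the other steps counted. Shares of all genes called are given above for the main analysis, and not for the alternatives. The sums here thus describe the members alone, and not whether they moved more than other genes. Valve cells against other endocardial cells gave 3 higher, and 5 without cells with a mitosis gene. They gave 1 lower, but 5 over all called barcodes, 3 with cells thinned to 500 UMIs, by the mean over cells or without cells with a mitosis gene, 2 with an endothelial UMI required, with no filter on UMIs or with classes drawn on thinned cells, 0 without cells high in immediate-early genes, and 8 without non-endothelial cells and other-cell-type markers. Between stages in endocardial cells 3 were lower, but 0 with thinned cells or without non-endothelial cells and other-cell-type markers, and 1 with an endothelial UMI, with at least 2 endocardial UMIs or with classes drawn on thinned cells. The ratio of Bmp4 in adult against E12 endocardial cells, 0.435 from 2 adult UMIs, turned to 1.37 with an endothelial UMI and to 1.78 without non-endothelial cells and other-cell-type markers. The cause was not tested. Classes drawn on thinned cells and the removal of other-cell-type markers were added after seeing the data. Of 44 single ratios with UMIs in both classes, classes drawn on thinned cells moved 11 by over 1.5 times. Depth limits Bmp6, the E12 coronary class and the adult endocardial class of 63 cells.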
